A study of Homo sapiens with 31 samples.

Results

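The circRNAs described here come from genes of membrane traffic, the transport of proteins and lipids between the compartments of the cell. A circRNA was included where the transcript it is named after belongs, in the GENCODE annotation on hg19, to a gene whose symbol begins with VPS, SNX, EXOC, RAB, TBC1D, COG, SEC or STX and a digit, or with DENND or TRAPPC. TBC1D32 and antisense genes were left out. The rule reads names only and uses no measured value. It gave 1640 of the 55371 circRNAs in the deposited list (2.96%), from 167 of 8094 genes. Together they held 27648 of 1029205 back-splice reads (2.69%). A further 322 circRNAs, named after transcripts that the annotation used here does not hold, had exon ends of such genes and were not counted as members.

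RAB proteins are small GTPases that mark each compartment and recruit the machinery that moves, tethers and fuses vesicles. DENND proteins switch them on by loading GTP, and TBC1D proteins switch them off. The exocyst (EXOC), the COG and TRAPP complexes and several VPS complexes tether membranes, and syntaxins (STX) are SNARE proteins that drive their fusion. SEC proteins build the coat of vesicles leaving the endoplasmic reticulum or move new proteins into it, and sorting nexins (SNX) sort cargo at endosomes. Neurons and photoreceptors depend on this traffic to deliver membrane to growing neurites, synapses and outer segments. A circRNA forms when a splice donor is joined to an acceptor that lies upstream of it in the same transcript, and reads across that back-splice junction were counted here. A name such as EXOC6B:E6-E3 gives the donor exon first and the acceptor exon second.

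Total RNA of H9, an established human embryonic stem cell line, was sequenced in 15 libraries. The 5 groups of 3 replicate cultures were undifferentiated cells at day 0 and cells differentiated towards retina for 45 or 90 days, each of these without or with IGF-1, a growth factor that acts through a receptor tyrosine kinase. IGF-1 was given at 5 ng/ml up to day 37 and at 10 ng/ml after it. All cultures are of this single line and were used whole, so that p-values measure only the spread between these cultures, and in bulk RNA fewer cells of a type and less RNA per cell cannot be told apart. RNA integrity numbers were 9.8 to 10 at day 0, 7.6 to 9.1 at day 45 and 7.1 to 8.9 at day 90, and their part in the changes with time was not tested.

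The libraries held 14992 to 108946 back-splice reads, of which 289 to 423 came from members at day 0 and 1240 to 3182 later. Levels are given as back-splice reads per 1000000 sequenced reads (RPM), and 3 counts over a group of 3 libraries, taken as the floor, came to 0.00692 to 0.0079 RPM. Intervals and floors cover counting error only. The labelled cell types could not be checked from back-splice reads, since most defining genes gave none. A gene without such reads can still be expressed. The study itself reported staining of retinal proteins at day 90, with known pluripotency genes down and eye field markers up. POU5F1, SOX2, NANOG and 4 more of 11 pluripotency genes were at 0 in every library, as were 9 of 11 genes of the eye field and retina, 4 of 6 of the retinal pigment epithelium and 3 of 3 of endoderm. Of 7 neuron genes TUBB3 and ELAVL4 were at 0, and the other 5 summed to 1 to 3 reads a library at day 0 (0.00703 to 0.0214 RPM), 25 to 36 at day 45 (0.226 to 0.246 RPM), 24 to 31 at day 45 with IGF-1, 17 to 36 at day 90 and 8 to 33 at day 90 with IGF-1. Their part in the changes with day was not tested. Mesenchyme genes (5 of 6 with reads) reached at most 6 reads in a library and muscle genes (3 of 4) at most 18.

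The junctions that the results turn on are printed with 20 bases on either side of the joint, read 5′ to 3′ on the strand of the gene from GRCh37 (hg19). The donor exon is in lower case and the acceptor exon in capitals. They were chosen to show the most abundant member, the RAB6A and DENND1A forms that share a donor, and circRNAs with few or no reads at day 0.
EXOC6B:E6-E3, chr2:72945232-72960247, minus strand: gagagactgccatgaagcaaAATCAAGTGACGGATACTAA
RAB6A:E6-E4, chr11:73418465-73429763, minus strand: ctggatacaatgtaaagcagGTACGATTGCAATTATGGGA
RAB6A:E6-E4, chr11:73418465-73429935, minus strand: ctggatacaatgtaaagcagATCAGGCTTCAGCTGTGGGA
RAB6A:E6-E3, chr11:73418465-73431944, minus strand: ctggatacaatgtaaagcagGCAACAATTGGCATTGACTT
DENND1A:E5-E2, chr9:126519982-126641300, minus strand: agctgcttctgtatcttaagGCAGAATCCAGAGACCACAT
DENND1A:E5-E4, chr9:126519982-126531842, minus strand: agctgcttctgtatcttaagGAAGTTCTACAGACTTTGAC
RAB31:E5-E2, chr18:9775275-9815219, plus strand: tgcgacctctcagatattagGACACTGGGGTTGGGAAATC
RAB3D:E4-E3, chr19:11446123-11446459, minus strand: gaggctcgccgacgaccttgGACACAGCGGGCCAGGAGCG
SEC24A:E4-E3, chr5:134002513-134007576, plus strand: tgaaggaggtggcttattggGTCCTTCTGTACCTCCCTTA
COG7:E10-E9, chr16:23424769-23428442, minus strand: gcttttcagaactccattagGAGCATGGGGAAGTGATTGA
DENND4A:E20-E18, chr15:65992882-65994228, minus strand: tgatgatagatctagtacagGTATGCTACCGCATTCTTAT

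The RAB6A junctions are the same before the joint and part after it, as are the DENND1A junctions, so each set has its donor in common. None of these 40-base junctions occurred in the genome or in an annotated transcript. Of 1603 members whose ends matched annotated exons, 100% had AG before the acceptor and 99.2% had GT after the donor, the bases of an ordinary splice site. Among other circRNAs these were 100% and 99.3%. Only ends of annotated exons were counted, so these bases come largely from the annotation and do not test the junctions.

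Most members were rare. Of the 1640, 565 (34.5%) were seen once in the whole data set, against 36.1% of all circRNAs, and 31 were found in all 15 libraries. The 10 most abundant held 8381 reads (30.3% of member reads). EXOC6B:E6-E3 alone held 3253 and was rank 10 among all 55371 circRNAs. EXOC6B codes for a subunit of the exocyst, which docks secretory vesicles at the plasma membrane, and its circRNA of exons 3 to 6 is 390 nt long when spliced and lies in coding sequence. Members spanned more exons than other circRNAs (mean 5.78 against 5.06) and more genome (median 13770 against 9858 bases), while their median spliced length was 519 against 510 nt. The median number of exons was 4 in both. An acceptor at exon 2 was used by 21.5% of members and 22.3% of the others, which held 31% and 37.7% of their reads, and 2.5% against 4.69% were single exons.

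By family, 34 genes with a RAB symbol held 20.9% of member reads, 8 exocyst genes 16.9% and 20 sorting nexin genes 13.3%. The 14 DENND genes made the most circRNAs (266, with 11.9% of reads). The RAB symbols also take in genes that do not code for RAB GTPases. These are RAB3GAP1, RAB3GAP2, RAB3IP and the RAB11FIP genes, and RAB4B-EGLN2 is a readthrough of 2 genes. Genes differed in how many circRNAs they made. The 3783 back-splice reads of EXOC6B came from 26 circRNAs, with 86.0% from EXOC6B:E6-E3. DENND4A, whose product activates RAB10, was spread far wider, with 977 reads over 75 circRNAs from 18 acceptors and 23 donors. Its leading acceptor, at position 66048810 of chromosome 15, took part in 16 circRNAs that held 33.8% of its reads. TRAPPC8, a subunit of a TRAPP complex, made 49 circRNAs, DENND4C 46, SEC24A, a cargo adaptor of the COPII coat, 45, and the sorting nexin SNX14 42. In 59 genes with at least 100 reads, the leading circRNA of the whole data set was also the leading one at day 45 in 49 (83.1%) and at day 90 in 52 (88.1%). The whole data set holds the reads of these groups, so part of this overlap is built in. Day 0 was not compared.

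Back-splice reads of the membrane traffic genes were more abundant after differentiation and made up a larger share of all back-splice reads than at day 0. Their summed level was 2.55 ± 0.495 RPM (SD, n = 3) at day 0, 20.5 ± 7.23 at day 45 and 13.5 ± 4.01 at day 90. The libraries ran from 2.03 to 3.02 RPM at day 0, from 15.2 to 28.7 at day 45 and from 8.95 to 16.6 at day 90, so day 0 did not overlap with either later time. The ratio of means at day 45 against day 0 was 8.03 for members and 6.33 for all circRNAs, and at day 90 it was 5.28 against 4.11.

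Members took 2.15 ± 0.224% of back-splice reads at day 0 (libraries 2.17, 1.91 and 2.36%), 2.70 ± 0.209% at day 45 (2.92, 2.69 and 2.5%) and 2.79 ± 0.0873% at day 90 (2.89, 2.76 and 2.73%). All day 45 and day 90 libraries were above the highest day 0 library, by as little as 2.5 against 2.36%. With 3 libraries against 3 an exact permutation test cannot go below p = 0.1, and none was run. Without EXOC6B:E6-E3 the share was 1.96 ± 0.278% at day 0 and 2.37 ± 0.141% at day 45, and the libraries overlapped (1.68 to 2.24 against 2.22 to 2.5%). That circRNA took 0.183% of all back-splice reads at day 0 and 0.332% at day 45.

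**Figure D1:**
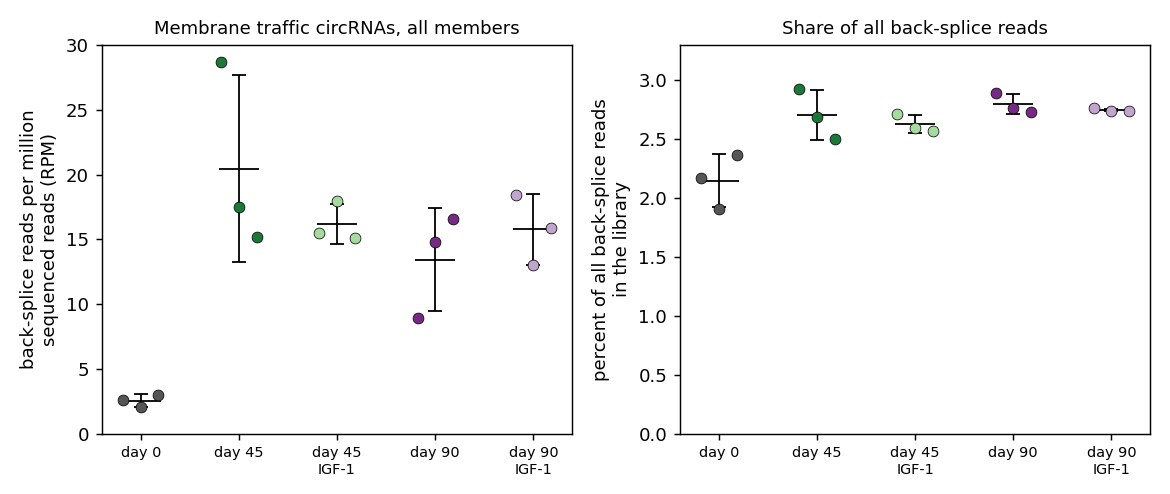
Summed level of the 1640 membrane traffic circRNAs in RPM (left) and their percent of all back-splice reads (right), with a point for each of 15 libraries and bars for the mean and SD of 3. Day 0 sits at 2.03 to 3.02 RPM and 1.91 to 2.36%, under every differentiated library in both panels.

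A filter of at least 10 reads over the 15 libraries left 380 of the 1640 members, with 24332 of their 27648 reads, and 12498 circRNAs in all. At day 45 against day 0, 171 of the 380 members (45%) rose by edgeR's quasi-likelihood test with Benjamini-Hochberg adjustment over all circRNAs, against 40.9% of all tested, and 0 fell, against 0.256%. At day 90 against day 0, 90 members rose (23.7%), against 21.7% of all tested, and 0 fell, against 0.328%. The members' shares are near those of all circRNAs. Without day 0 replicate 2 the counts were 104 at day 45 and 48 at day 90. The day 90 count was 54 without day 0 replicate 1 and 58 without day 90 replicate 3. Shares of all circRNAs called without these libraries are not given, so these drops cannot be set apart from a drop over all circRNAs. The libraries did not overlap, with the later time higher, for 186 members (48.9%) at day 45, against 46.2% of all tested, and for 145 (38.2%) at day 90, against 32.4%.

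Of the 380 members, 195 had no read at day 0, so their fitted change depends on the prior count of the fit. The fitted median at day 45 against day 0 was 3.23 on the log2 scale for members and 2.87 for all circRNAs. It was 2.02 against 1.78 over the 63 members and 2485 circRNAs with more than 3 reads at day 0. With circRNAs at or under the floor at day 0 set to their bound the medians were 1.63 over 299 members and 1.5 over 9987 circRNAs, which leaves out those at or under the floor in both groups.

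Summed over the circRNAs of a gene, 119 membrane traffic genes had at least 10 reads. At day 45, 87 of them (73.1%) were called higher than at day 0, against 61.9% of all 4616 genes, and at day 90 66 (55.5%), against 43.4%. None was called lower by edgeR, against 0.39% and 0.672% of all genes. Among genes with at least 50 reads the shares lay closer. There 79 of 84 member genes (94%) were called higher at day 45, against 88.1% of all genes, and 65 (77.4%) at day 90, against 70.3%. Member genes and all genes were not matched for their reads.

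These changes are per sequenced read, and the whole back-splice fraction was larger after differentiation. Scaled instead to back-splice reads with TMM factors, the median change of all circRNAs at day 45 against day 0 dropped from 2.87 to 1.60, and with DESeq2 size factors to 1.24. For genes it dropped from 2.77 to 0.83 and 0.51. Of the 380 members at day 45, 23 circRNAs were then called higher with TMM (6.05%), against 6.26% of all tested, and 1 lower (0.263%), against 0.912%. With size factors 7 were called higher (1.84%), against 2.57%, and 3 lower (0.789%), against 1.51%. At day 90 the calls with TMM were 21 higher (5.53%), against 5.91%, and 2 lower (0.526%), against 1.04%. With size factors they were 7 higher (1.84%), against 2.88%, and 2 lower (0.526%), against 1.55%. The members' shares lay near or under those of all circRNAs.

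A call under these scalings says that the change of a gene differed from 0 on that scale. The median of all genes at day 45 was itself above 0, at 0.83 with TMM factors and 0.51 with size factors. A call thus does not place a gene apart from most others. Of 119 member genes at day 45, 20 were called higher with TMM (16.8%), against 10.8% of all genes, and 2 lower (1.68%), against 3.16%. With size factors 15 were called higher (12.6%), against 7.34%, and 4 lower (3.36%), against 4.44%. At day 90 the calls with TMM were 20 higher (16.8%), against 10.8%, and 1 lower (0.84%), against 3.47%. With size factors they were 15 higher (12.6%), against 7.45%, and 4 lower (3.36%), against 4.85%. The difference between these shares was not tested, and they are not over genes of like counts.

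The 20 genes called higher with TMM at day 45 came from 9 of the 10 families. They were 5 DENND genes (DENND1A, DENND1B, DENND4A, DENND4C and DENND5B), 5 RAB genes (RAB2A, RAB3D, RAB6A, RAB18 and RAB31), the exocyst genes EXOC5 and EXOC6B, the sorting nexin genes SNX4 and SNX14, TBC1D12 and TBC1D19, COG7, TRAPPC6B, SEC62 and VPS35L. No STX gene was among them. EXOC2 and TBC1D14 were called lower. Size factors called TBC1D31 and RAB11FIP1 lower as well. Genes of this paragraph that are not among the 3 with most reads of their family are named after their values were seen, as are EXOC2, COG7, DENND5B and TBC1D19 where they return.

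**Figure D2:**
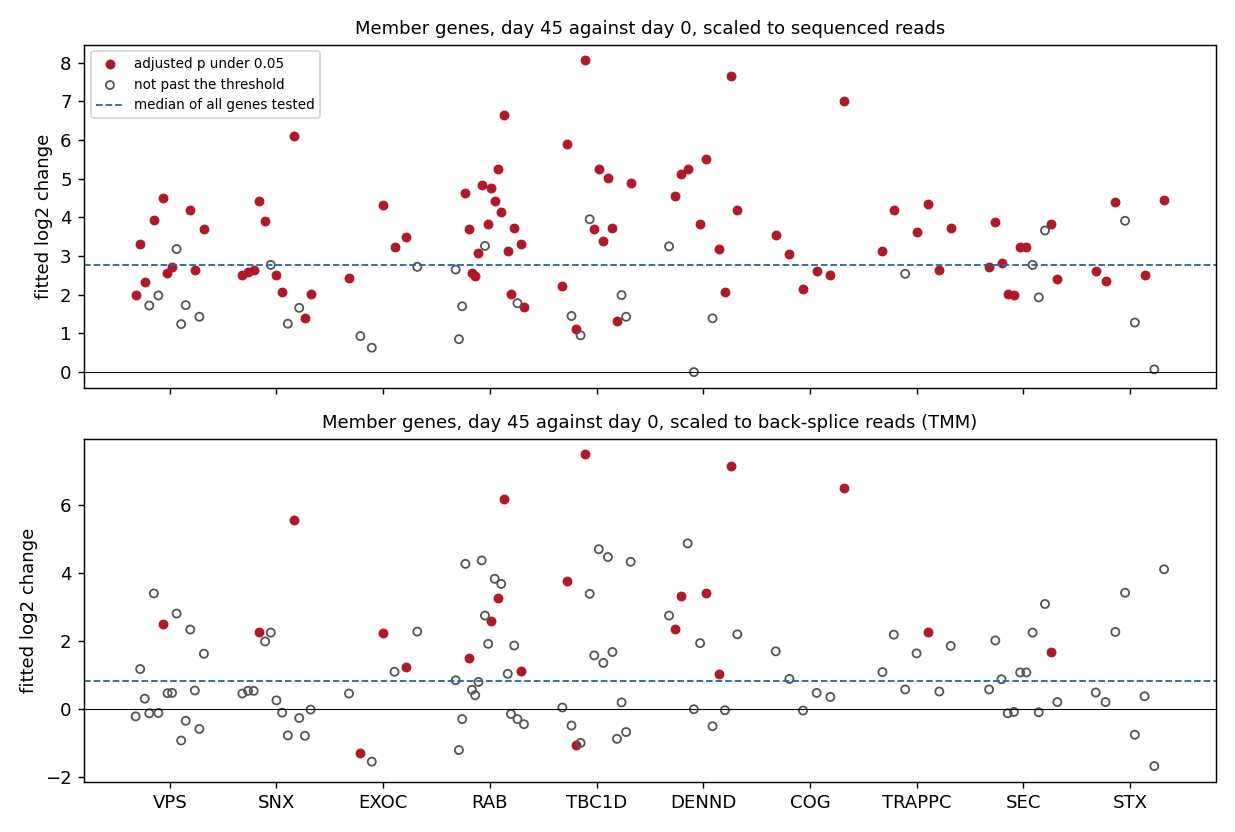
Fitted log2 change of each of 119 member genes at day 45 against day 0, by family, scaled to sequenced reads (upper) and to back-splice reads with TMM factors (lower), with filled points past the adjusted threshold and a dashed line at the median of all genes tested. In the upper panel 87 genes are called higher, in the lower 20 higher and 2 lower, and the points of genes with no read at day 0 depend on the prior count.

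Counts of genes called within a family, which follow, are to be read beside the 61.9% of all genes called higher at day 45 and the 43.4% at day 90. Member genes named below that are not among the 20 listed above were not called higher at day 45 with TMM factors. The tethers were led by the exocyst. EXOC6B:E6-E3 had 29, 35 and 22 reads at day 0, 454, 271 and 248 at day 45, 232, 301 and 203 at day 45 with IGF-1, 159, 259 and 281 at day 90, and 253, 269 and 237 at day 90 with IGF-1. Its level was 0.212 ± 0.048 RPM at day 0, 2.58 ± 1.32 at day 45 and 1.62 ± 0.407 at day 90. All 12 later libraries were above the 3 of day 0, with the highest value in the first culture of day 45. The change from day 0 was 3.60 ± 0.44 (log2, SE; adjusted p = 3.9e-14) at day 45 and 2.93 ± 0.43 (adjusted p = 1.25e-09) at day 90. With TMM factors it was 1.74 (adjusted p = 3.03e-07) at day 45, where the median of all circRNAs was 1.60.

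Other exocyst genes moved unequally. EXOC5 had 3, 0 and 2 reads at day 0 and 37, 19 and 48 at day 45, a change of 4.33 ± 0.63 (adjusted p = 1.25e-10). EXOC6, the paralog of EXOC6B, went from 9 to 84 reads over 3 libraries (3.22 ± 0.58, adjusted p = 2.59e-07). For EXOC2 the counts were 5, 9 and 13 at day 0, 24, 14 and 10 at day 45 and 7, 9 and 14 at day 90, and the groups overlapped. Its change at day 45 was 0.93 ± 0.55 per sequenced read (adjusted p = 0.123) and -1.28 with TMM factors (adjusted p = 0.0441), so its direction turned with the scaling. Of 7 exocyst genes tested 4 were called higher at day 45 and 3 at day 90.

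COG genes, which code for the tether of vesicles moving within the Golgi, were called higher at day 45 in 6 of 6 tested. COG7 had no read at day 0 and 14, 17 and 15 at day 45, at least 15.8-fold higher over the floor (adjusted p = 1.31e-08). Its circRNA COG7:E10-E9 had 9, 7 and 8 reads at day 45 and 1, 7 and 6 at day 90. COG2 rose by 3.04 ± 0.56 (adjusted p = 3.86e-07), from 12 to 95 reads over the group, and COG3 by 2.16 ± 0.54 (adjusted p = 0.000238), from 16 to 68, though COG3 was not above 0 with TMM factors or size factors. Of 7 TRAPPC genes 6 were called higher at day 45. TRAPPC8 rose by 2.64 ± 0.55 (adjusted p = 7.56e-06), from 14 to 86 reads. With TMM factors TRAPPC8 was at 0.52 (adjusted p = 0.465) and COG2 at 0.89 (adjusted p = 0.258). TRAPPC6B, with 3 reads at day 0, had a ratio of 22.3 (95% counting interval 7.3 to 111; adjusted p = 1.87e-08), and its TRAPPC6B:E4-E2 had 0, 0 and 0 reads at day 0, 6, 5 and 4 at day 45 and 3, 11 and 8 at day 90.

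**Figure D3:**
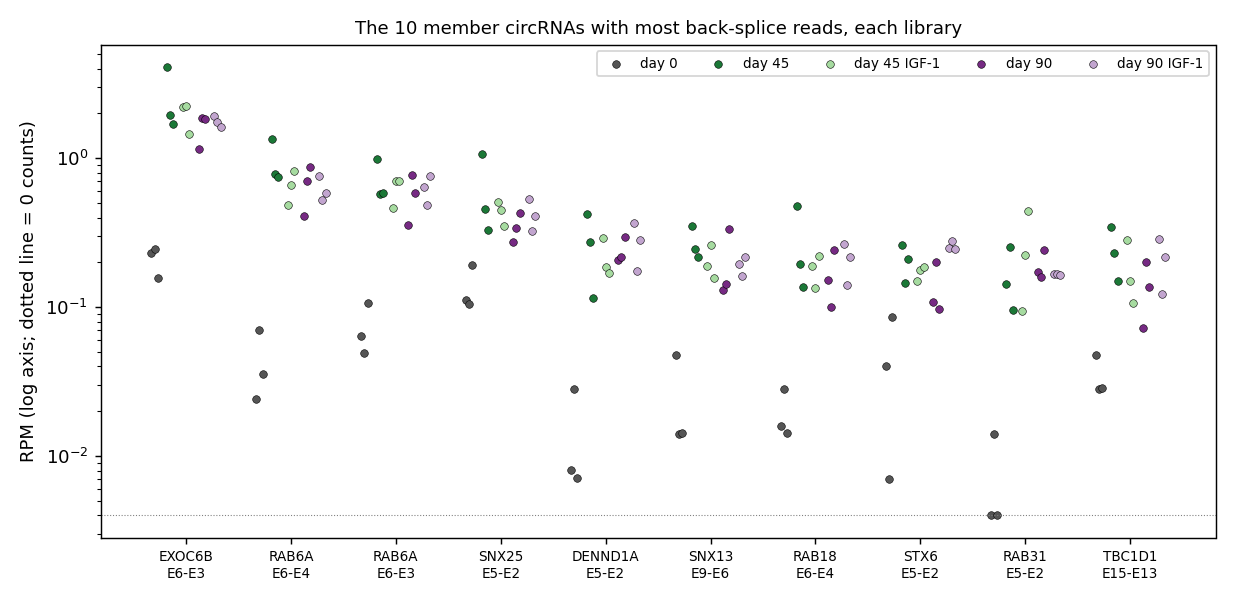
Level in RPM (log axis) of the 10 member circRNAs with most back-splice reads, a point for each of 15 libraries in 5 groups, with libraries at 0 counts on the dotted line. For all 10 the 3 day 0 libraries lie under the 3 day 45 and the 3 day 90 libraries without IGF-1, and RAB31:E5-E2 is at 0 in 2 of the 3.

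Among the RAB genes RAB6A, which directs vesicles from the Golgi, held most reads (2506 over 9 circRNAs). Its RAB6A:E6-E3 had 8, 7 and 15 reads at day 0, 110, 80 and 86 at day 45 and 49, 107 and 90 at day 90. The groups did not overlap, and the change was 3.27 ± 0.47 (adjusted p = 3.02e-10) at day 45. RAB18:E6-E4, from a gene that acts at the endoplasmic reticulum and lipid droplets, had 2, 4 and 2 reads at day 0 and 53, 27 and 20 at day 45 (3.70 ± 0.59, adjusted p = 1.95e-08). RAB2A, which acts between the endoplasmic reticulum and the Golgi, gave 0, 2 and 4 reads at day 0 and 72, 47 and 41 at day 45, a change of 4.76 ± 0.59 (adjusted p = 2.19e-14). Of 22 genes with a RAB symbol tested, 17 were called higher at day 45 and 11 at day 90.

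RAB31 and RAB3D gave almost no circRNA at day 0. RAB31 acts in transport between the trans-Golgi network and endosomes, and RAB31:E5-E2 had 0, 2 and 0 reads at day 0, 16, 35 and 14 at day 45, 10, 30 and 62 at day 45 with IGF-1, 24, 22 and 37 at day 90 and 22, 26 and 24 at day 90 with IGF-1. The widest spread within a group was that of day 45 with IGF-1. Its ratio to day 0 was 33.5 (95% counting interval 8.9 to 282; adjusted p = 9.57e-09) at day 45 and 39.3 (10.5 to 330; adjusted p = 1.97e-09) at day 90. RAB3D is a GTPase of secretory granules, and RAB3D:E4-E3 had no read at day 0, 10, 12 and 13 at day 45 and 11, 6 and 11 at day 90. It was at least 12-fold higher at day 45 (adjusted p = 1.25e-06) and at least 8.83-fold at day 90 (adjusted p = 2.63e-05). It passed the filter through the later groups only and was named for its large change, so these values restate that choice. The same holds for the other named circRNAs with no read at day 0.

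A circRNA of RAB11FIP1, a partner of RAB11 at recycling endosomes, is named here after its values were seen. RAB11FIP1:E2-E2 is a single exon of 443 bases, with 13, 10 and 12 reads at day 0, 9, 24 and 15 at day 45 and 12, 12 and 27 at day 90. The groups overlapped, and its change at day 45 was 0.47 (adjusted p = 0.431) per sequenced read and -1.23 (adjusted p = 0.0651) with TMM factors.

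RAB6A gave a pair of circRNAs with the same donor, at position 73418465 of chromosome 11, and different acceptor exons, which start at 73429763 and 73429935. Both are named RAB6A:E6-E4, each after its own transcript. The acceptor exons are both 106 bases long and are identical at 75 positions (70.8%), and their first 20 bases, the capitals in the printed junctions, match at 11. The form with the acceptor at 73429763 had 3, 10 and 5 reads at day 0, 149, 109 and 109 at day 45, and 57, 98 and 134 at day 90. It rose by 4.42 ± 0.50 (adjusted p = 5.71e-16) at day 45 and by 2.60 with TMM factors. The form with the acceptor at 73429935 had 11, 3 and 10 reads at day 0, 17, 14 and 6 at day 45, and 4, 6 and 21 at day 90. It did not pass the test at day 45 (0.69, adjusted p = 0.296), and with TMM factors its value was -1.09.

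The form with the acceptor at 73429935 made up 24 of 42 reads of the pair at day 0 (57.1%, exact 95% interval 41 to 72.3) and 37 of 404 at day 45 (9.16%, 6.53 to 12.4). It made up 43 of 297 at day 45 with IGF-1 (14.5%, 10.7 to 19), 31 of 320 at day 90 (9.69%, 6.68 to 13.5) and 28 of 294 at day 90 with IGF-1 (9.52%, 6.42 to 13.5). By library the day 0 shares were 78.6, 23.1 and 66.7%, and the highest share among the 12 later libraries was 22.7%. The lowest day 0 library was thus barely above them.

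A test of usage in edgeR asks whether the circRNAs of a gene change in their proportions. RAB6A had the lowest p among 73 member genes at day 45 against day 0 (p = 0.000458) and did not pass after adjustment over 2163 genes (adjusted p = 0.11). The adjusted p was 0.0143 with TMM factors, 0.00517 with at least 50 reads a circRNA, and 0.284 when the p-values of single circRNAs were combined by Simes' method. Usage was called in 0 member genes at day 45 against day 0, against 0.0462% of all genes, and in 0 at day 90 against day 45, against 0%. After RAB6A came TBC1D14 (adjusted p = 0.195), SEC63 (0.505), VPS37A and VPS13A (both 0.662). At day 90 against day 45 the lowest p-values were those of DENND1A (p = 0.027, adjusted p = 1), SEC11A, STX18, COG2 and TBC1D5. At an unadjusted p under 0.05 there were 6 (8.22%) and 2 (2.74%), against 7.49% and 3.61% of all genes.

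**Figure D4:**
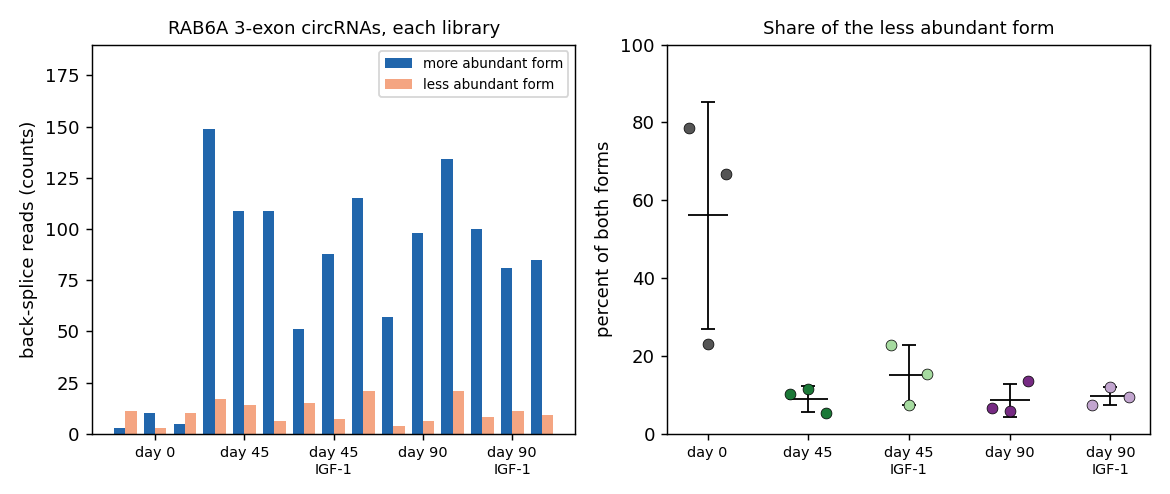
Back-splice counts of the pair of RAB6A:E6-E4 circRNAs in each of 15 libraries (left) and the percent of the pair that came from the less abundant form (right), with bars for the mean and SD of 3 libraries. The share is 23.1 to 78.6% in the day 0 libraries and at most 22.7% later, while the counts of that form stay between 3 and 21.

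DENND genes, the activators of RAB proteins, had the largest ratio of level to day 0 among the 10 families. They made up 0.0973 ± 0.0431% of all back-splice reads at day 0, 0.293 ± 0.0173% at day 45, 0.328 ± 0.04% at day 45 with IGF-1, 0.358 ± 0.0151% at day 90 and 0.345 ± 0.0266% at day 90 with IGF-1. The highest day 0 library, at 0.139%, was under the lowest day 45 library, at 0.278%. Their level in RPM was 18.7 times that of day 0 at day 45, where the ratios of the other families lay between 5.96 for TBC1D and 10.3 for TRAPPC. The DENND ratio rests on 48 reads at day 0, from 0.0641 to 0.178 RPM by library, and the TRAPPC ratio on 26. Of 12 DENND genes tested 9 were called higher at day 45 (75%), against 61.9% of all genes, and 8 at day 90 (66.7%), against 43.4%. With TMM factors 5 were at day 45 (41.7%), against 10.8% of all genes.

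DENND4A had 2, 2 and 1 back-splice reads at day 0, 79, 78 and 75 at day 45, 29, 102 and 81 at day 45 with IGF-1, 51, 99 and 104 at day 90 and 114, 82 and 78 at day 90 with IGF-1. Day 0 was far under every later library, and the change was 5.50 ± 0.58 (adjusted p = 7.49e-19) at day 45 and 5.48 ± 0.58 (adjusted p = 2.33e-18) at day 90. It was 3.40 (adjusted p = 5.95e-07) with TMM factors at day 45. Of its circRNAs DENND4A:E20-E18 had 0, 0 and 0 reads at day 0 and 9, 6 and 7 at day 45, at least 7.55-fold higher (adjusted p = 9.08e-05). DENND4A:E11-E3, with no read at day 0 and 7, 7 and 7 at day 45, was at least 7.2-fold higher, and DENND4A:E7-E6, with 5, 4 and 3 at day 45, at least 4.12-fold.

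DENND5B, another gene with no read at day 0, had 22, 21 and 29 at day 45 and 12, 15 and 22 at day 90, at least 24.7-fold and 15.5-fold higher. DENND1A activates RAB35 in endocytic recycling. DENND1A:E5-E2 had 1, 4 and 1 reads at day 0, 47, 38 and 17 at day 45 and 29, 30 and 45 at day 90, and rose by 4.11 ± 0.61 (adjusted p = 1.28e-09) at day 45.

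DENND1A:E5-E4, which has the same donor and a later acceptor, had no read at day 0, 17, 12 and 7 at day 45, 11, 0 and 6 at day 45 with IGF-1, 0, 0 and 3 at day 90 and 3, 0 and 8 at day 90 with IGF-1. It was at least 12.4-fold higher at day 45 than at day 0 (adjusted p = 2.2e-06). It was also the single member called between the later times, where day 90 against day 45 was -3.61 ± 0.86 (adjusted p = 0.0461). That call was lost without day 45 replicate 1 or 2 or day 90 replicate 1 or 2, with adjusted p from 0.0534 to 0.51.

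TBC1D genes, which inactivate RAB proteins, were called higher in 11 of 16 tested at day 45 and in 9 at day 90. TBC1D12, with 3 reads at day 0 and 185 at day 45 over the groups, had a ratio of 63.5 (95% counting interval 21.4 to 311; adjusted p = 8.39e-18). TBC1D19 had no read at day 0 and 43, 32 and 18 at day 45, at least 31.9-fold higher (adjusted p = 1.73e-14). TBC1D1 is known for its part in glucose transporter traffic. Its TBC1D1:E15-E13 had 6, 4 and 4 reads at day 0, 38, 32 and 22 at day 45 and 10, 28 and 21 at day 90. It rose by 2.76 ± 0.55 at day 45 (adjusted p = 9.39e-06) and was not called with TMM factors (0.98, adjusted p = 0.236).

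TBC1D14, a regulator of autophagy, had 15, 10 and 16 reads at day 0, 34, 30 and 21 at day 45 and 15, 29 and 32 at day 90. Its change at day 45 was 1.12 ± 0.47 (adjusted p = 0.0295) per sequenced read and -1.05 (adjusted p = 0.0312) with TMM factors, so that it was called in opposite directions. Its single-exon circRNA TBC1D14:E2-E2, named after its values were seen, had 10, 4 and 7 reads at day 0, 4, 8 and 0 at day 45 and 1, 5 and 5 at day 90. The groups overlapped, with -0.75 (adjusted p = 0.375) at day 45 and -2.47 (adjusted p = 0.00543) with TMM factors. Of 9 single-exon members tested, DENND2A:E1-E1 and SEC24B:E3-E3 were called higher at day 45, from 0 reads at day 0 to 10 and 9.

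**Figure D5:**
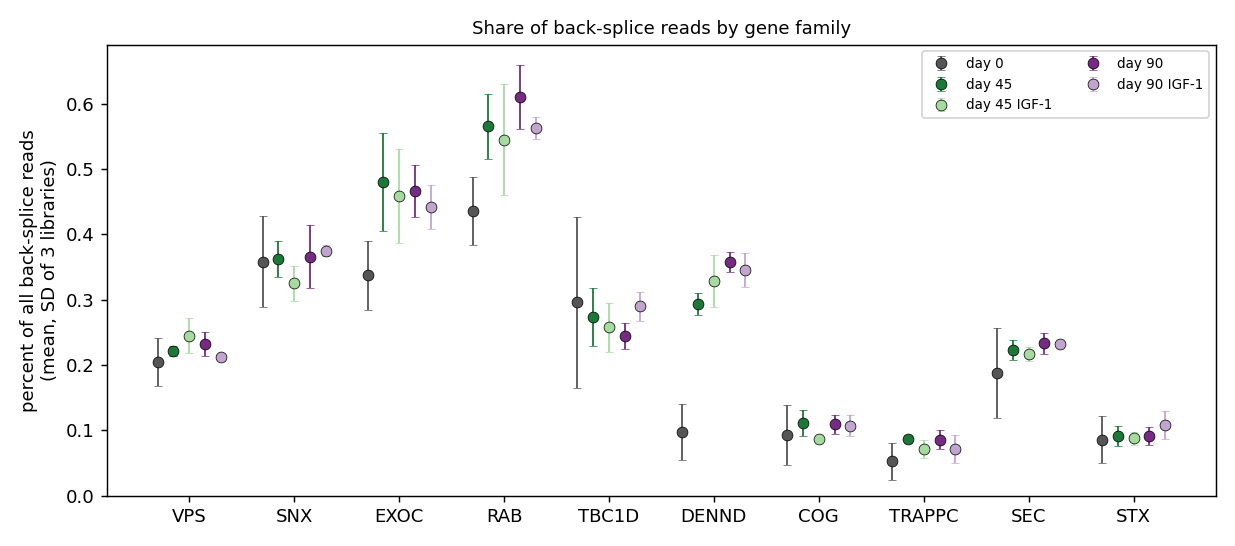
Percent of all back-splice reads from each of 10 gene families, with points for the mean and bars for the SD of 3 libraries in each of 5 groups. DENND goes from 0.0973% at day 0 to 0.293% at day 45 and 0.358% at day 90, while between day 0 and day 45 without IGF-1 the bars overlap in all families but DENND, RAB and EXOC.

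Sorting nexins stood at 6.41 times their day 0 level at day 45. Of 13 tested 10 were called higher at day 45 and 7 at day 90. SNX25:E5-E2, from chromosome 4, had 14, 15 and 27 reads at day 0, 119, 63 and 48 at day 45 and 38, 47 and 66 at day 90. The groups did not overlap, and the change was 2.16 ± 0.44 (adjusted p = 1.79e-05) at day 45 and 1.34 ± 0.44 (adjusted p = 0.017) at day 90, where the call was lost without day 0 replicate 1 or 2 or day 90 replicate 3 (adjusted p from 0.0827 to 0.0943). At day 45 it was 0.30 with TMM factors and -0.29 with size factors, so its direction rests on the scaling. SNX13:E9-E6 had 6, 2 and 2 reads at day 0 and 39, 34 and 32 at day 45 (3.40 ± 0.57, adjusted p = 9.26e-08). SNX14, like SNX13 and SNX25 a sorting nexin with an RGS domain, went from 9 to 189 reads over the group (4.41 ± 0.55, adjusted p = 2.82e-14).

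VPS genes were called higher at day 45 in 10 of 16 tested (62.5%) and at day 90 in 7 (43.8%), which is the share of all genes (61.9% and 43.4%). VPS37A, a subunit of ESCRT-I, which sorts ubiquitinated cargo at endosomes, went from 25 to 155 reads at day 45 (2.71 ± 0.48, adjusted p = 1.08e-07). VPS35L, a subunit of a complex that recycles cargo from endosomes, had 3 reads at day 0 and 74 at day 45, a ratio of 25.4 (95% counting interval 8.36 to 126; adjusted p = 2.12e-09). VPS13A, a lipid transfer protein, rose by 1.98 ± 0.52 (adjusted p = 0.000401) per sequenced read and was not above 0 with TMM factors. The rule also takes in VPS72, whose product works in chromatin.

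SEC genes were called higher in 9 of 12 tested at day 45 and in 7 at day 90. SEC24B, a cargo adaptor of the COPII coat, went from 17 to 154 reads (3.24 ± 0.50, adjusted p = 1.49e-09). SEC24A:E4-E3, from its paralog, had no read at day 0, 11, 11 and 7 at day 45 and 3, 7 and 12 at day 90, at least 9.95-fold and 6.94-fold higher. SEC63 works in the translocon of the endoplasmic reticulum and SEC11A is a subunit of the signal peptidase, so both act on new proteins and not on vesicles. SEC63 rose by 2.40 ± 0.48 (adjusted p = 3.07e-06) and SEC11A by 2.71 ± 0.54 (adjusted p = 2.43e-06) per sequenced read, though SEC63 was not above 0 with size factors.

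STX genes were called higher in 5 of 8 tested at day 45 and in 3 at day 90. STX6 is a SNARE of the trans-Golgi network and endosomes, and STX6:E5-E2 had 5, 1 and 12 reads at day 0, 29, 20 and 31 at day 45, 15, 28 and 15 at day 90 and 33, 43 and 36 at day 90 with IGF-1. Day 0 lay under both later groups without IGF-1, and the change was 2.19 ± 0.54 (adjusted p = 0.000375) at day 45 and 1.60 ± 0.54 (adjusted p = 0.021) at day 90, while with size factors it was -0.13 and -0.08. The day 90 call was lost without day 0 replicate 1 or 2 or day 90 replicate 2 (adjusted p from 0.0697 to 0.199). STX18, a SNARE of the endoplasmic reticulum, had a ratio of 23.2 (95% counting interval 6.05 to 197; adjusted p = 6.37e-07) at the level of the gene.

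Of the 30 genes that led the 10 families in reads, 3 from each, all 30 were called at day 45 per sequenced read and 29 at day 90. With TMM factors 13 were called at each time (43.3%), against 14% of all genes at day 45 and 14.3% at day 90, and with size factors 11 (36.7%), against 11.8% and 12.3%. TBC1D14, a TBC1D gene, was the 1 called lower, at day 45 with TMM factors and at both times with size factors. Above 0 at day 45 were 27 of the 30 with TMM factors, all but COG3, TBC1D14 and VPS13A, and 23 with size factors, where SEC63, SNX25, STX17 and TBC1D1 were not above 0 either. At day 90 25 and 23 were above 0. These genes were taken for their many reads, so their shares and those of all genes are not over genes of like counts.

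Between day 45 and day 90 few differences passed. At the level of circRNAs 0 members rose by edgeR, against 0.016% of all tested, and 1 fell (0.263%), against 0.064%. At an unadjusted p under 0.05 there were 31 (8.16%), against 9.61%. DESeq2's Wald test called 0, and Fisher's exact test on summed reads, which leaves out the spread between cultures, called 20 lower (5.26%), against 7.12% of all tested, and 1 higher (0.263%), against 0.248%. The groups did not overlap, with day 90 lower, for 52 members (13.7%), against 13.2% of all circRNAs. The ratio of summed levels was 0.657, against 0.649 for all circRNAs. EXOC6B:E6-E3 changed by -0.67 (adjusted p = 0.584) and SNX25:E5-E2 by -0.82 (adjusted p = 0.515), neither of which passed. At the level of genes edgeR called 0, against 0.0433% higher and 0.238% lower. At an unadjusted p under 0.05 there were 18 member genes (15.1%), against 14% of all genes.

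IGF-1 gave no call among the members. At day 45, 0 of 380 were called higher or lower by edgeR, against 0% and 0.016% of all tested, with 16 at an unadjusted p under 0.05 (4.21%), against 4.58%. At day 90, 0 were called, against 0% and 0.008%, with 10 (2.63%), against 4.17%. Fisher's exact test on summed reads called 6 lower at day 45 (1.58%), against 1.18% of all tested, and 2 higher at day 90 (0.526%), against 0.52%. The summed level with IGF-1 was 16.2 ± 1.58 RPM at day 45, a ratio of 0.792 to the cultures without it, against 0.829 for all circRNAs, and 15.8 ± 2.73 at day 90, a ratio of 1.17, against 1.18. The summed levels with and without IGF-1 overlapped at both times. Single members did not overlap, with IGF-1 lower, in 26 cases at day 45 (6.84%), against 5.89% of all tested, and with IGF-1 higher in 20 at day 90 (5.26%), against 4.98%. For genes 0 were called at either time by edgeR, against 0.0217% lower at each. At an unadjusted p under 0.05 there were 6 (5.04%) and 1 (0.84%), against 4.51% and 3.25% of all genes.

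For EXOC6B:E6-E3 the difference with IGF-1 was -0.39 ± 0.38 at day 45 and 0.12 ± 0.38 at day 90 (log2, SE), within the spread of the cultures. RAB31:E5-E2 differed by 0.64 ± 0.46 and -0.20 ± 0.46. STX6:E5-E2, whose counts are given above, differed by -0.25 ± 0.47 at day 45 and 0.92 ± 0.46 at day 90 (p = 0.0469, adjusted p = 1), where its libraries with IGF-1 were all above those without. COG7:E10-E9, with 9, 7 and 8 reads without and 3, 6 and 4 with IGF-1 at day 45, differed by -0.83 ± 0.73 (adjusted p = 1) and did not overlap. The difference between the effects at day 45 and day 90 was called in 0 members by edgeR, against 0%, with 22 at an unadjusted p under 0.05 (5.79%), against 4.82%.

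Other genes of membrane traffic that the naming rule does not reach were counted in lists by function. Of 28 genes of coats, adaptors and endocytosis tested 18 were called higher at day 45 (64.3%), against 61.9% of all genes, and 14 at day 90 (50%), against 43.4%, with a fitted median of 3.23 at day 45 against 2.77 over all genes. PICALM, a clathrin assembly protein, went from 79 to 873 reads (3.58 ± 0.41, adjusted p = 5.16e-16). Of 18 ARF GTPases, exchange factors and GAPs 16 and 15 were called higher (88.9 and 83.3%; median 3.17), led by PSD3, an ARF exchange factor (2.70 ± 0.45, adjusted p = 2.6e-08). Of 20 SNARE and fusion genes other than STX and SEC 13 and 9 were called higher (65 and 45%; median 3.00). STXBP5, a syntaxin-binding protein, had 3 reads at day 0 and 234 at day 45. Of 25 ESCRT and endosome genes outside the named families 19 and 15 were called higher (76 and 60%; median 2.62), with LRBA going from 65 to 335 reads (2.36 ± 0.41, adjusted p = 9.44e-08). Of 8 Golgi tethers 4 and 3 were called higher (50 and 37.5%; median 1.85). No gene of these lists was called lower by edgeR, and none was called at day 90 against day 45 or with IGF-1.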

How the data were processed

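Raw back-splice counts per circRNA were deposited by the authors, who had found them in ribosome-depleted total RNA with PTESFinder version 1, guided in part by junctions known beforehand, on hg19 and GENCODE 19; it was run with a PID of 0.85, a JSpan of 8, m set to 7 and segments of 60. Here transcripts were matched to GENCODE 44 lifted to GRCh37, from which junctions were read. Sequences of junctions on chromosome 8 or reaching a UTR are not shown.

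The counts of the 15 libraries were fitted once in edgeR 4.0.16 (R 4.3.3; glmQLFit and glmQLFTest), with a mean per group and at least 10 summed counts; the library size was the number of sequenced reads, and TMM factors were left at 1. Adjusted p-values (Benjamini-Hochberg, threshold 0.05) run over all circRNAs or genes. Sequenced reads were those the study lists; its listing gives 2 totals for day 90 replicate 1 and none for replicate 2, so both were given the mean of the 2. Gene counts are sums over circRNAs, and usage was tested with diffSpliceDGE. Alternatives used DESeq2 1.42.0, TMM factors, other filters, single libraries left out, a replicate block and Fisher's exact test. The common dispersion was 0.179. The fit was tested on simulated data. Figures used Python 3.11.15 and matplotlib 3.10.9, intervals scipy 1.17.1.

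Named circRNAs are the 10 with most reads, and those with the largest fitted changes past the threshold and no overlap between libraries. In each comparison up to 5 of these were taken in each direction. Named genes are the 3 with most reads of each family, the 5 with most circRNAs and the 5 with the lowest p for usage; genes called with TMM factors were named after their values were seen. Members and lists were chosen with earlier results of these data known. Amplicon samples of the series were not used here. Genes of overlapping or near-identical sequence may share reads.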

Additional observations from a re-analysis of the deposited data

How the results depend on the processing

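The counts of calls against day 0 rest on the scaling. Of member circRNAs at day 45 against day 0, 24 (6.32%, all tested 7.17%) were called with TMM factors, 10 (2.63%, all 4.08%) with DESeq2 size factors, 99 of 1640 (6.04%, all 5.74%) with no filter on counts and 94 of 106 (88.7%, all 87.6%) with at least 50 counts. At day 90 against day 0 they were 23 (6.05%, all 6.95%), 9 (2.37%, all 4.43%) and 51 (3.11%, all 3%) under the first 3 of these. Member genes called were 22 with TMM (18.5%, all genes 14%) and 19 with size factors (16%, all 11.8%) at day 45, and 21 (17.6%, all 14.3%) and 19 (16%, all 12.3%) at day 90. At day 90 against day 45 no member was called (0) with TMM, size factors, either filter, the replicate block, day 90 sequenced reads swapped between replicates or taken as the normalised counts imply, or DESeq2's Wald test, and Fisher's exact test called 21 (5.53%, all 7.37%). With IGF-1 Fisher's test called 6 at day 45 (1.58%, all 1.28%) and 2 at day 90 (0.526%, all 0.648%). Changed usage was called in 1 member gene, RAB6A, with TMM and in 1, again RAB6A, with at least 50 counts. The shares of all genes called for usage under these settings are not given here. Of 36 changes of 18 named circRNAs, SNX25:E5-E2 turned to -0.29 and -0.38 and STX6:E5-E2 to -0.13 and -0.08 at day 45 and day 90 with size factors, under which 20 more lost their call and 12 kept it. Over the other settings with every library kept, 323 values held their call and 19 lost it, 11 of these with TMM, and without 1 library 205 held it and 11 lost it. The implied day 90 reads were chosen after seeing the data. They gave 109 circRNAs (28.7%, all 26.8%) and 72 genes (60.5%, all 49.4%) at day 90 against day 0. The causes were not tested.

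Leaving out 1 library in turn, the calls ranged from 104 to 160 for circRNAs at day 45 against day 0, from 48 to 104 at day 90 against day 0, from 0 to 1 at day 90 against day 45 and in the difference between IGF-1 effects, and were 0 to 0 for IGF-1. The lowest counts were without day 0 replicate 2. For genes the range was 73 to 85 at day 45 and 53 to 69 at day 90. Shares of all circRNAs and all genes called with the same library left out are not given beside these ranges. The percent of back-splice reads ranged from 2.04 to 2.26 at day 0, 2.6 to 2.81 at day 45, 2.58 to 2.65 at day 45 with IGF-1, 2.75 to 2.83 at day 90 and 2.74 to 2.75 at day 90 with IGF-1. With genes matched by exon ends too, it was 2.41, 3.19, 3.07, 3.38 and 3.23 in the same order, and with circRNAs of at least 2 counts in a library 2.04, 2.66, 2.56, 2.76 and 2.71, where day 0 libraries (1.7 to 2.25) stayed under those of day 45 (2.46 to 2.91).

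The labels do not say whether cultures of the same replicate number are paired, and the main fit took them as unpaired. Deviations of same-numbered libraries correlated by -0.111 to 0.371, above 0.1 in 5 of 30 pairs. Such correlations alone cannot exclude a pairing. With the replicate block 143 circRNAs (37.6%, all 35.3%) and 84 genes (70.6%, all 59%) were called at day 45 against day 0. At day 90 against day 0 they were 78 (20.5%, all 19.6%) and 63 (52.9%, all 41.7%). Day 0 libraries, with the fewest back-splice reads, limit what can be told at low counts.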
